A study of Mus musculus with 32 samples.

Results

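The genes described are members of the BMP (bone morphogenetic protein) pathway and the Id family, measured in single cells of a neurogenic zone. The set held 10 of the 38740 gene symbols in the deposited expression table and was chosen by symbol: the ligands Bmp4, Bmp6 and Bmp7, the receptors Bmpr1a and Bmpr2, the inhibitory Smad gene Smad6, and the Id genes Id1, Id2, Id3 and Id4. Each symbol had 1 line in the table. The libraries came from mouse subventricular zone, the stem cell niche along the lateral ventricle of the forebrain, at postnatal day 21. There were 28 libraries of 1 cell each, S1 to S28, and 4 libraries of 10 cells each, P1 to P4. All carried the same tissue and age, and the labels named no strain, genotype, treatment, sort, animal or culture, which leaves no replicates to compare, and all results are descriptions without a p-value.

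BMPs are secreted ligands of the TGF-beta family. They bind complexes of type I and type II receptor kinases, which phosphorylate Smad proteins that enter the nucleus, and the Id genes are among the best known direct targets. Id proteins are helix-loop-helix proteins without a DNA-binding region that bind and hold back basic helix-loop-helix (bHLH) transcription factors. In the adult subventricular zone, BMP signalling and Id proteins are known for their part in stem cell maintenance and glial fate, and Id1 and Id3 are also known in blood vessels.

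The Id genes were the members whose pattern over cells the results turn on, so the promoter letters of those with an entry in RefSeq (build GRCm38.p6) are shown, from 250 bases before to 50 bases after the RefSeq start. Of the 10 members 8 had an entry, and Id1 and Bmp7 had none. The RefSeq start of Id3 lies inside the gene as the expression table lists it, so its whole window does too, and the start of Id4 lies ahead of the table's. Capitals mark GGCGCC, a GC-rich element known from BMP-responsive promoters.
Id2, chr12:25096043-25096342, minus strand: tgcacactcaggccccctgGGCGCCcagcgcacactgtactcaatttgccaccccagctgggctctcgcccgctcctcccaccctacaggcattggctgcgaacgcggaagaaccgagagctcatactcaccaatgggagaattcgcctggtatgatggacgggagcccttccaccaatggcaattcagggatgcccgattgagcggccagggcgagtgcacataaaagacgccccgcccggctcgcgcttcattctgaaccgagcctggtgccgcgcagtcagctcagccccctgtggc
Id3, chr4:136143572-136143871, plus strand: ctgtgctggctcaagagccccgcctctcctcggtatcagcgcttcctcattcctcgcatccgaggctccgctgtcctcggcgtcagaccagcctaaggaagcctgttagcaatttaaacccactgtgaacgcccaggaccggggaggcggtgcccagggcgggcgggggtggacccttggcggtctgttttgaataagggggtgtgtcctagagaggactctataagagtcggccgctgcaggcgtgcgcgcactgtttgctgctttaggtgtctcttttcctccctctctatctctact
Id4, chr13:48260866-48261165, plus strand: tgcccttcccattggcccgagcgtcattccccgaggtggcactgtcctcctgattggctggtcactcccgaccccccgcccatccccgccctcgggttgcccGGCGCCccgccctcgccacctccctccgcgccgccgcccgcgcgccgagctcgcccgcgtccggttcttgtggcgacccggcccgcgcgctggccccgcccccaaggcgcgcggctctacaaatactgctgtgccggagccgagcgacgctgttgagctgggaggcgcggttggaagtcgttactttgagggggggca

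GGCGCC reads the same on both strands and occurred once in Id2, at positions -231 to -226 from the start base (counted as 0), and once in Id4, at -148 to -143. It also occurred once each in Bmpr1a and Bmpr2, and not in Id3, Bmp4, Bmp6 or Smad6. Of 32841 promoters of the same length, 11.9% held it. The short Smad-binding letters GTCT, searched on both strands, occurred 3 times in Id3, once in Id2 and not in Id4, and 88.0% of all promoters held at least 1. CAGCTG, an E-box that bHLH factors can bind and which also reads the same on both strands, was in the Id2 window alone among these 8 members and in 16.3% of all promoters. These are matches of letters in a short window and not binding sites.

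Levels are given as FPKM, fragment numbers scaled to transcript length and library depth, so that levels of different genes can be compared. Found means an FPKM of 1 or more. Single cells had a median of 4986 genes found (2107 to 10169) and pools had 10478 to 12870. The smallest steps in the values gave the depth of 23 libraries: an FPKM of 1 over 1 kilobase stood for about 6.17 to 38.9 fragments. In the 16 of cells S1 to S17 with a clear step, 1 fragment came to about 0.0510 to 0.169 FPKM for a transcript as long as Id1. Cells were sorted into classes by the marker list with the highest mean of log2(FPKM + 1) where it led the next list by at least 1. This gave 8 endothelial-like cells (S1, S2, S3, S6, S7, S8, S16 and S17), 3 oligodendrocyte-like (S4, S12 and S13), 2 ependymal-like (S9 and S15), 2 astrocyte-like (S11 and S14), 3 microglia-like (S18 to S20), 7 neuroblast-like (S22 to S28) and 1 choroid plexus-like cell (S5). Cells S10 and S21 had no class, since ependymal and stem cell markers ran close in S10 and microglial and neuroblast markers in S21. Cell S3 carried 10 of 14 microglial markers beside all 12 endothelial ones, and cell S5 carried 10 of 11 choroid plexus markers while its Ttr, the thyroid hormone carrier that defines the type, was listed at 0. Oligodendrocyte-like S12 carried 8 of 14 astrocyte markers, against 2 each in S4 and S13, and ependymal-like S9 and S15 carried 7 and 8. Levels in S12 may thus not stand for oligodendrocytes alone, which was not tested. No member is in any marker list.

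The libraries of cells S18 to S22 and of S23 to S28 stood apart. Genes very high in 1 cell of such a set and low in its other cells were still above 0 in 98.7% and 97.6% of those other libraries, at medians of 0.343% and 0.292% of the highest value, against 15.1% in cells S1 to S17. All microglia-like and neuroblast-like cells lay in these sets, so class and library set cannot be told apart for them. Results are therefore also given without these 11 cells, or with values under 2% of the highest of the set put at 0.

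Id1 and Id3 were high in most endothelial-like cells, and both were listed at 0 in all 11 cells S18 to S28. Id1 (ENSMUSG00000042745, chromosome 2, 152736251 to 152737410, GRCm38) had 0.392, 2025, 2566, 598, 19.5, 24.7, 252 and 994 FPKM in endothelial-like cells S1, S2, S3, S6, S7, S8, S16 and S17. Cell S1 alone of these lay under 1, and the other 7 spread from 19.5 to 2566. In S3 Id1 ranked 59th among all genes. Outside this class Id1 was found in 4 of 20 cells: 1079 FPKM in S10, 630 in ependymal-like S9, 113 in choroid plexus-like S5 and 47.5 in oligodendrocyte-like S12. In astrocyte-like cells S11 and S14 it had 0.385 and 0.0872 FPKM. In all it was found in 11 of 28 cells (39.3%, exact Clopper-Pearson 95% interval 21.5% to 59.4%, counting error only).

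Id3 (ENSMUSG00000007872, chromosome 4, 136143497 to 136145755) followed Id1 in many cells but not in all. In the same order of endothelial-like cells it had 0.268, 676, 561, 134, 662, 203, 0.0892 and 177 FPKM. S7 and S8, low for Id1 within the class, were high for Id3, while S16 had Id1 at 252 FPKM and Id3 under 1. In other cells Id3 had 281 FPKM in S9, 130 in S10, 114 in S11, 75.8 in S15, 41.5 in S12 and 37.9 in S5. S11 and S15 had Id3 without Id1. It was found in 12 of 28 cells (42.9%, 24.5% to 62.8%), and Id1 and Id3 were found together in 10.

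Over the 28 cells the levels of Id1 and Id3 had a Spearman rho of 0.88 and, as log2 values, a Pearson r of 0.78. Within cells S1 to S17 these were 0.64 and 0.62, so the pooled value rests in part on the 11 cells at 0. Cells of 1 library set share low-level signal, and these values describe the libraries only. Among 10 housekeeping genes at most 1 per cell was listed at 0 in S18 to S28 and at most 2 in S1 to S17. Signal shared within a library set can keep such genes above 0, so this count does not tell how complete those libraries were. S28 had no housekeeping gene at 0, yet the lowest housekeeping mean, 2.95 in log2(FPKM + 1). Other genes of the pathway, such as Bmp6, Bmpr2, Hes1 and Msx1, were also listed at 0 in all of S18 to S28. Why Id1 and Id3 were listed at 0 there was not tested. Of 3266 genes found in at least 11 of cells S1 to S17, 2.88% were listed at 0 in all of S18 to S28, Id1 and Id3 among them, and 7.9% were under FPKM of 1 in all of them.

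**Figure D1:**
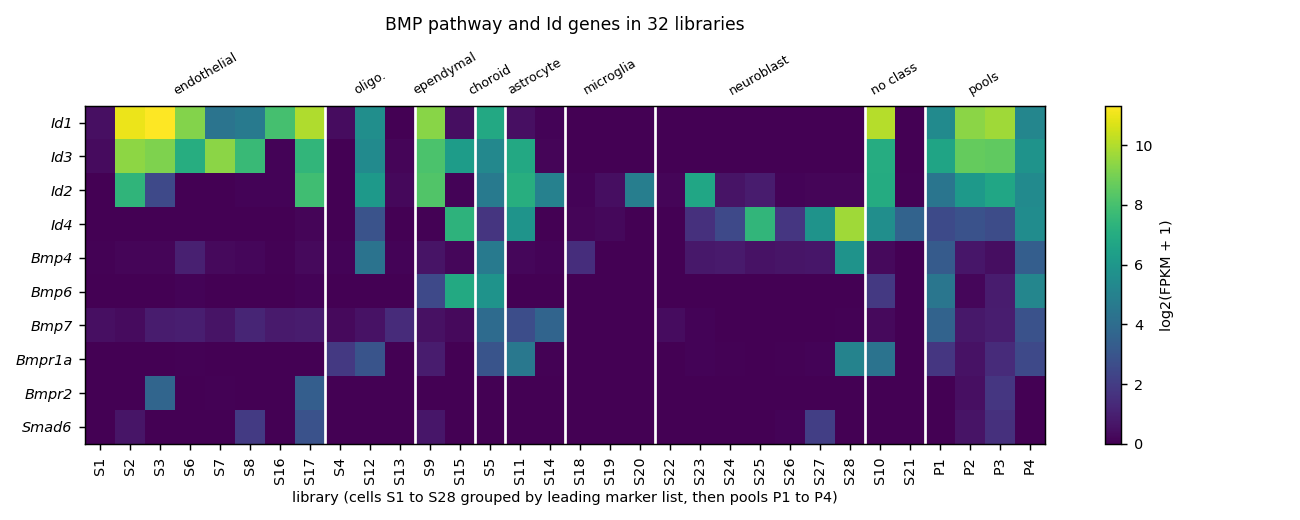
Levels of the 10 genes as log2(FPKM + 1) (colour) in each of 32 libraries (columns); cells are grouped by leading marker list and pools stand last. Id1 and Id3 are bright in most endothelial-like cells, S9, S10 and pools P2 and P3 and dark in all of S18 to S28, where Id4 is the Id gene most often found.

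Mean Id1 was 810 FPKM over the 8 endothelial-like cells and 93.5 over the other 20, a log2 difference of 3.10 on the log2(FPKM + 1) scale. Id3 had 302 against 34.0 FPKM, a log2 difference of 3.11. The ranges of both genes overlapped between the groups, since S9 and S10 lay as high as many endothelial-like cells. Without cells S18 to S28 the log2 differences were 1.96 and 1.98, and without S3 they were 2.57 and 2.92. Of 18856 genes found in at least 1 cell, 21.5% were at least 2-fold higher in endothelial-like cells on this scale and 35.3% at least 2-fold lower, so a difference of this direction is common. Of the 10 members, Id1, Id3 and Bmpr2 were past 2-fold higher and Bmp4, Bmp6, Bmpr1a and Id4 past 2-fold lower. Bmpr2 had a log2 difference of 1.87, and 0.68 by means of log2 values. It was listed at 0 in all other cells, so it has no fold without a pseudocount. The log2 difference was -2.33 for Bmp4 (-1.54 without S28), -3.28 for Bmp6 and -2.46 for Bmpr1a. These sizes depend on the scale, since endothelial-like values were at or near 0: in the same order they were -3.97, -6.26 and -5.43 with a pseudocount of 0.1, and -0.9996, -1.04 and -1.35 by means of log2 values, where Bmp4 no longer passed 2-fold. The median log2 difference was -0.19 over the members and -0.30 over all genes.

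Id4, the Id gene known in neural progenitors and glia, was found in none of the endothelial-like cells. Id4 (ENSMUSG00000021379, chromosome 13, 48261427 to 48264036) reached at most 0.104 FPKM in the 8 endothelial-like cells and was listed at 0 in 7 of them. It was found in 12 of the other 20 cells. Of 2537 genes found in at least 12 of those 20 cells, 3.47% were likewise found in no endothelial-like cell. Mean Id4 was 0.0130 FPKM in endothelial-like cells and 68.5 in the others, a log2 difference of -6.10, or -4.95 without cells S18 to S28 and -4.82 without S28. With 7 of 8 endothelial-like cells at 0 its size also depends on the scale, at -9.25 with a pseudocount of 0.1, -7.11 under upper quartile scaling and -3.01 by means of log2 values. The highest level was 845 FPKM in neuroblast-like S28, followed by 176 in S25, 160 in ependymal-like S15, 57.0 in astrocyte-like S11, 55.6 in S27 and 46.7 in S10. The rest were 11.1 in S21, 6.47 in S12, 4.66 in S24, 2.46 in S26, 2.35 in S5 and 2.01 in S23.

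Part of the Id4 count lay at the level of the signal shared within a library set. The values in S23, S24 and S26 were 0.237%, 0.551% and 0.291% of the value in S28, beside the median of 0.292% given for that set. With values under 2% of the highest put at 0, Id4 was found in 9 cells in place of 12, and of the neuroblast-like cells S25, S27 and S28 held it. Under that setting S21, with Id4 at 11.1 FPKM, also fell in the neuroblast-like class. S28 had the lowest mean of housekeeping genes of all cells, 2.95 in log2(FPKM + 1) against 4.59 to 7.86 in the others. It was also the cell with the highest Bmp4 and Bmpr1a, and whether its library bears on these 3 levels was not tested.

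Id2 (ENSMUSG00000020644, chromosome 12, 25093801 to 25096092) was found in 11 cells spread over more classes than the other Id genes. It had 303 FPKM in ependymal-like S9, 230, 171 and 4.74 in endothelial-like S17, S2 and S3, 134 and 30.04 in the astrocyte-like S11 and S14, and 125 in S10. It had 105 FPKM in neuroblast-like S23, 69.8 in S12, 27.4 in microglia-like S20 and 23.7 in S5. Astrocyte-like was the only class of at least 2 cells in which every cell had Id2. In endothelial-like cells its median was 0.0833 FPKM, so 5 of the 8 lay under 1.

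Ordered by median over the classes of at least 2 cells, endothelial-like cells came first for Id1 (425 FPKM) and Id3 (190), ahead of ependymal-like cells (315 and 178), and ependymal-like cells came first for Id2 (152) and Id4 (79.9). For Id1, Id2, Id3 and Id4 alike, the ranges of the first 2 classes in this order overlapped, so these neighbours do not differ beyond the spread of their cells. Classes of 2 or 3 cells give little precision. The ependymal-like medians are midpoints of 2 cells, S9 and S15, and for Id1, Id2 and Id4 only 1 of them had the gene found. In S9 and S15 Id1 had 630 and 0.320 FPKM, Id2 had 303 and 0.0730, and Id4 had 0.0449 and 160. The first place of this class for Id2 and Id4 thus rests on 1 cell each.

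**Figure D2:**
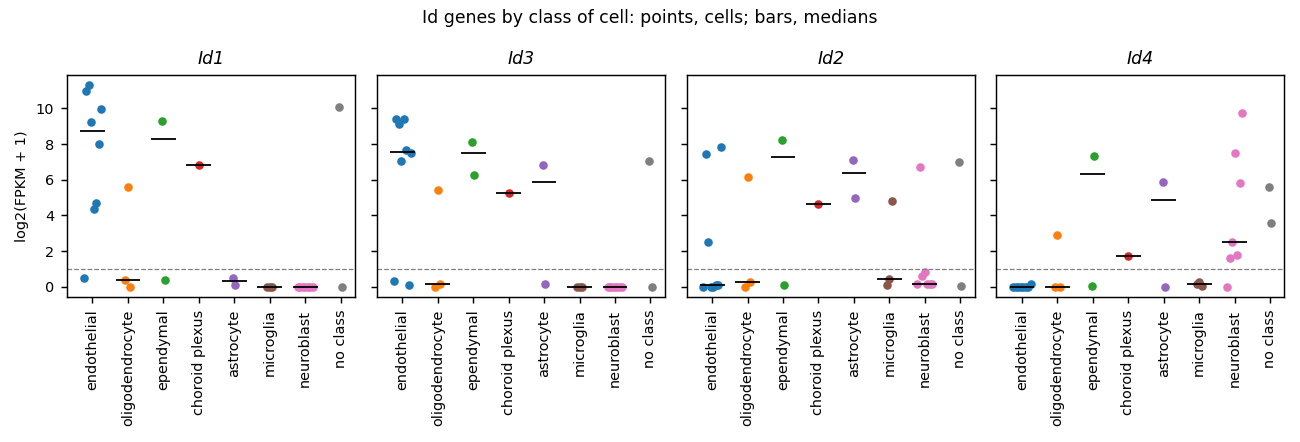
Levels of Id1, Id3, Id2 and Id4 as log2(FPKM + 1) by class of cell; each point is a cell, bars are class medians and the dashed line is FPKM of 1. Endothelial-like cells hold the highest Id1 points and no Id4, and microglia-like and neuroblast-like cells lie at 0 for Id1 and Id3.

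The make-up of the summed Id level differed from cell to cell even within a class. At least 1 Id gene was found in 22 of 28 cells and all 4 in S5, S10 and S12. The sum of the 4 was 3132 and 2872 FPKM in S3 and S2, and Id1 made up 81.9% and 70.5% of it. In S7 and S8 the sums were 682 and 228 FPKM and Id3 made up 97.1% and 89.1%. In S9 the sum of 1214 FPKM was 51.9% Id1, with Id2 and Id3 for most of the rest. Id4 made up 67.7% in S15, 99.6% in S21 and 90.4% or more in neuroblast-like S24 to S28. In S24 and S26 the sums were only 5.16 and 2.55 FPKM. With values under 2% of the highest of the set put at 0, neither had an Id gene found, though the 22 cells above include them. Cells S1, S4, S13, S18, S19 and S22 had no Id gene found. They include all classes but the ependymal-like, astrocyte-like and choroid plexus-like.

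**Figure D3:**
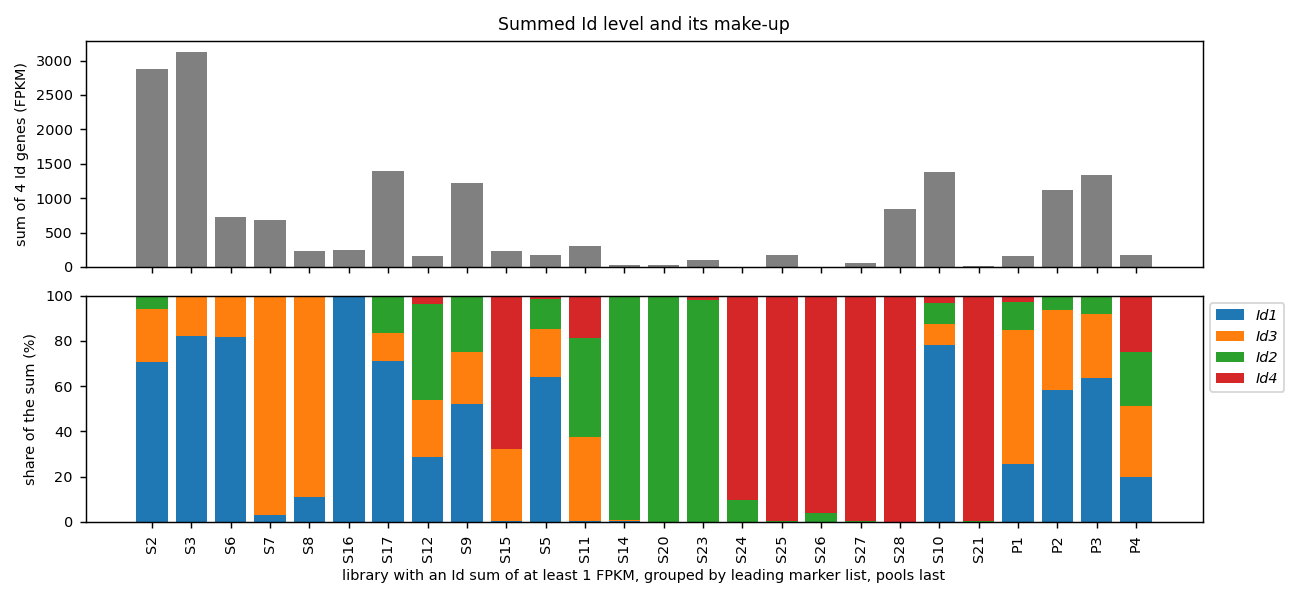
Upper bars show the sum of Id1, Id2, Id3 and Id4 in FPKM and lower bars the share of each in percent, for libraries with a sum of at least 1 FPKM. Id1 or Id3 makes up most of the sum in endothelial-like cells and Id4 in S24 to S28, with sums of 3132 FPKM in S3 and 845 in S28. The sums in S24 and S26 are only 5.16 and 2.55 FPKM.

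The ligand genes were found in few cells, and only S5 had all 3. Bmp6 (ENSMUSG00000039004, chromosome 13, 38345716 to 38499728), known for its part in iron control, had 116 FPKM in ependymal-like S15, 54.9 in choroid plexus-like S5, 4.598 in S9 and 2.63 in S10. Every other cell lay under 0.1 FPKM, so both ependymal-like cells, S5 and S10 were the cells with Bmp6. No share of all genes with such a pattern was taken, so it is not shown to be particular to Bmp6. The lower 2 values are uncertain, since Txndc5 overlaps Bmp6 on the opposite strand and had 80.2 and 160 FPKM in S9 and S10, against 0.0654 in S15 and 14.6 in S5. Txndc5 was also high where Bmp6 was listed at 0, with 173 FPKM in S11, 54.2 in S26 and 14.3 in S12.

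Bmp4 (ENSMUSG00000021835, chromosome 14, 46383520 to 46390669), a ligand of embryonic patterning and of the adult niche, had 55.6 FPKM in neuroblast-like S28, 24.7 in S5, 18.7 in oligodendrocyte-like S12, 1.75 in S18 and 1.01 in S6. The other cells of the set of S28 had 0.479 to 0.780 FPKM, or 0.863% to 1.40% of its value. The antisense gene Gm15222 overlaps Bmp4 and had 18.3 FPKM in S5 and was listed at 0 in S12 and S28. Bmp7 (ENSMUSG00000008999, chromosome 2, 172868012 to 172940321), a ligand known in meninges and choroid plexus, had 14.6 FPKM in S5, 11.4 and 5.40 in the astrocyte-like S14 and S11, 1.60 in S13 and 1.23 in S8. Both astrocyte-like cells lay above every cell of the endothelial-like, ependymal-like, oligodendrocyte-like, microglia-like and neuroblast-like classes, and below S5. Of the 18856 genes, 1.18% separated these 2 cells from those 5 classes in the same way.

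The receptor members were low and were found together in no cell, for which a count of 0 allows up to 10.7% of cells. Bmpr1a (ENSMUSG00000021796, chromosome 14, 34410734 to 34503341), a type I receptor, had 32.5 FPKM in S28, 21.8 in S11, 18.9 in S10, 6.71 in S12, 6.67 in S5 and 2.64 in S4. It reached at most 0.0557 FPKM in endothelial-like cells. Bmpr2 (ENSMUSG00000067336, chromosome 1, 59764279 to 59870549), a type II receptor linked to pulmonary arterial hypertension in humans, had 11.8 FPKM in S3 and 9.38 in S17, both endothelial-like, and was listed at 0 in all 20 other cells. Smad6 (ENSMUSG00000036867, chromosome 9, 63953076 to 64022059), an inhibitor that BMP signalling itself induces, had 6.21 FPKM in S17, 3.25 in S27 and 2.78 in S8. With 6, 2 and 3 cells these genes give little to compare between classes.

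Taking all receptors measured, a type I gene (Bmpr1a, Bmpr1b, Acvr1 or Acvrl1) was found in 17 cells, a type II gene (Bmpr2, Acvr2a or Acvr2b) in 7 and both in 6. Of the 13 cells with Id1 or Id3, 5 had both receptor types found (S3, S5, S12, S16 and S17), 7 had 1 type only and S6 had neither. A ligand member was found in 12 cells. Bmp6 and Id3 were found together in all 4 Bmp6 cells, of which S9 and S10 held the uncertain Bmp6 values. Bmpr2 and Id3 were likewise found together in the 2 Bmpr2 cells, and Bmp4 and Bmpr1a in S5, S12 and S28. No share over other genes was taken and the cells are few, so these overlaps show no link between the genes.

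Another 52 genes of the pathway were read in lists by role, and all 8 other receptors and co-receptors were found in a cell. Eng, the co-receptor endoglin, had a lowest level of 207, a median of 500 and a highest of 1490 FPKM in endothelial-like cells and at most 0.921 in the others, so the groups did not overlap. Of the 18856 genes, 0.239% had their lowest endothelial-like cell above the highest other cell. Acvrl1, the type I receptor ALK1 that pairs with endoglin, was found in 6 of 8 endothelial-like cells, with a median of 135 FPKM, and reached at most 0.997 in the other cells. Their ligand genes Gdf2 and Bmp10 were listed at 0 in every library. Hey1, a bHLH repressor induced by Notch and BMP, was found in 5 endothelial-like cells and in none of the others. Of the 18856 genes, 0.398% were found in at least 5 endothelial-like cells and in no other cell. Atoh8, a bHLH gene outside the rule for named genes and chosen after its values were seen, was found in S3 alone.

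Of 12 other ligands 5 were found in a cell. Gdf11 had up to 135 FPKM (S15) over 4 cells, Gdf10 up to 66.5 (S11) over 3, and Bmp2 up to 17.7 (S4) over 3. Bmp8a, Bmp8b, Gdf6 and Gdf7 reached FPKM of 1 in no library. The activin receptor Acvr1 was found in 10 cells across classes, Smurf2, a ubiquitin ligase that targets Smads, in 13, Smad5, a Smad that BMP receptors phosphorylate, in 13, and Smad4, their common partner, in 11. All 11 Smad4 cells were among S1 to S17.

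Of 14 inhibitors 9 were found in a cell: Fstl1, a secreted glycoprotein, in 12 cells, Twsg1, which binds BMPs outside the cell, in 10, and Bambi, a decoy receptor, in 7. The antagonists Nog, Chrdl1, Fst and Sost reached 1 in no library. Sostdc1, a secreted antagonist outside the rule for named genes and chosen after its values were seen, had 478 FPKM in S5. Among targets, Hes1, a bHLH repressor, was found in 8 cells and Msx1, a homeobox gene, in 5, with Msx2 in no library. Of bHLH genes that Id proteins can bind, Tcf4 was found in 27 cells, Tcf12 in 13 and Tcf3 in 10, and Neurod1 in no library. With low values of the sets put at 0, Tcf4 was found in 24 cells, Tcf12 in 12 and Tcf3 in 8.

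**Figure D4:**
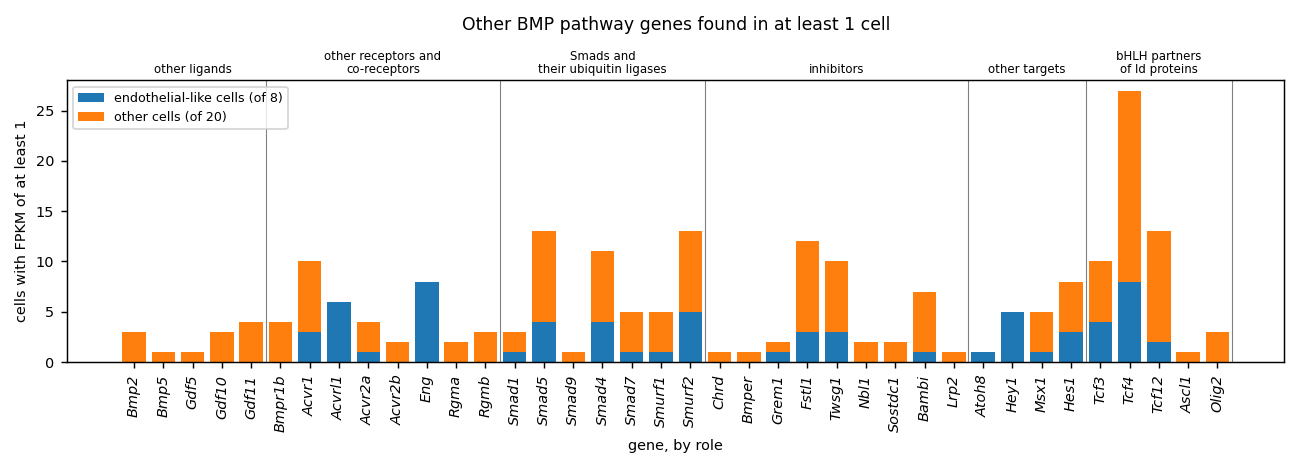
Number of cells with FPKM of at least 1 for each other BMP pathway gene found in a cell, split into the 8 endothelial-like cells and the 20 others. Eng, Acvrl1 and Hey1 were found in endothelial-like cells alone, in 8, 6 and 5 of them, and so was Atoh8 in 1.

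The genes whose levels ran most like a member were taken over the 28 cells among 9448 genes found in at least 6 cells. For Id3 they were Tm4sf1 (rho 0.93), Ltbp4 (0.91) and Tspan13 (0.90), which within cells S1 to S17 had 0.79, 0.74 and 0.70. For Id1 they were Anxa2 (0.90), the pseudogene Rplp1-ps1 (0.90) and Ltbp4 (0.90), with 0.66, 0.72 and 0.58 within S1 to S17. Anxa2, Ltbp4 and Tm4sf1 were, like Id1 and Id3, listed at 0 in all of S18 to S28. For Id4 they were Meis2 (0.79), Nr2f1 (0.78) and Lrp1 (0.76). For Id2, at lower values, they were Dag1 (0.69), Atp6v0c (0.66) and Eml5 (0.64), and for Bmpr1a Acsl6 (0.88), Stox2 (0.85) and Dos (0.84). The cells share library sets, and the leading genes of a list of this length are picked for their high values.

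In the pools of 10 cells, Id1 and Id3 and the ligand genes split the libraries in opposite ways. Id1 had 41.8, 649, 844 and 35.6 FPKM in P1, P2, P3 and P4, and Id3 had 96.3, 394, 376 and 55.9. Bmp6 had 20.6, 0.139, 0.824 and 35.8 FPKM, Bmp4 had 8.51, 0.624, 0.333 and 9.50, and Bmp7 had 11.3, 0.647, 0.894 and 6.20. P2 and P3 were thus high for Id1 and Id3, and P1 and P4 for all 3 ligands. On the scale of FPKM + 1, the lower pool of the high pair was in each of these 5 genes more than 2-fold above the higher pool of the low pair. The log2 difference was 3.92 and 1.95 for Id1 and Id3 and 2.55, 3.57 and 1.93 for Bmp4, Bmp6 and Bmp7. Bmpr1a was also higher in both P1 and P4, and Id2, Smad6 and Bmpr2 in both P2 and P3, by less than 2-fold on this scale. For Smad6 and Bmpr2 the added 1 decides this. They had 0.528 and 0.367 FPKM in P2, under the limit for found, while P1 and P4 had 0 for Smad6 and 0 and 0.0158 for Bmpr2. Of 17069 genes found in a pool, 18.8% were higher in both P1 and P4 and 17.4% in both P2 and P3. With the 2-fold limit on the scale of FPKM + 1, 7.97% were past 2-fold in the direction of the ligands and 6.65% in that of Id1 and Id3.

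Endothelial and choroid plexus markers in the pools moved with this split. Endothelial markers were found as 12 of 12 in P2 and in P3 and as 3 and 4 in P1 and P4, with Cldn5, a tight junction gene of vessels, at 0.301, 1305, 2268 and 4.64 FPKM in P1 to P4. All 11 choroid plexus markers were found in P1 and P4 and 3 and 5 in P2 and P3, with Ttr at 33894, 19.5, 25.1 and 19813 FPKM. Means of log2(FPKM + 1) over the lists were 1.02, 8.08, 8.51 and 1.02 for endothelial and 7.42, 1.11, 1.72 and 6.21 for choroid plexus markers. The leading list in P1 and P4 was the oligodendrocyte one, with 8.84, 6.53, 1.33 and 9.36 in P1 to P4. Astrocyte markers had 1.60, 1.57, 2.31 and 6.92, and microglial markers came second in P2, at 6.72. Eng had 0.0188, 333, 656 and 0.0571 FPKM, and Sostdc1 had 246 and 127 FPKM in P1 and P4 and was listed at 0 in P2 and P3. The part of these cell types in the levels of the members was not tested. In a pool, fewer cells of a type and less RNA per cell cannot be told apart.

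Id2 varied less among the pools, with 20.3, 66.0, 104 and 42.4 FPKM (58.2 ± 35.8, SD, n = 4). Id4 had 4.77, 6.21, 5.28 and 45.0 FPKM. P4, the pool with the high value, was the only one with all 14 astrocyte markers and also the only one with all 11 oligodendrocyte markers. Of the astrocyte-like single cells, S11 had Id4 at 57.0 FPKM and S14 had it listed at 0. Which cells gave the high value in P4 was not tested. Bmpr1a had 2.46, 0.468, 1.63 and 4.72 FPKM. Bmpr2 and Smad6 reached 1 in P3 alone, at 2.47 and 1.97 FPKM. The antisense gene Gm15222 beside Bmp4 had 6.88 and 4.97 FPKM in P1 and P4 and was listed at 0 in P2 and P3, and Txndc5 beside Bmp6 had 15.1 to 28.0 FPKM in all 4.

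**Figure D5:**
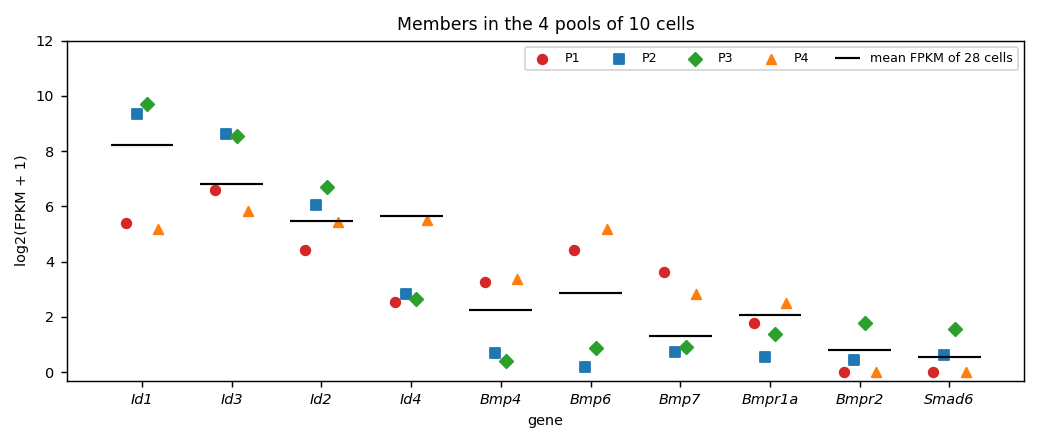
Levels of the 10 genes as log2(FPKM + 1) in pools P1 to P4 (symbols), with the mean FPKM of the 28 cells on the same scale as a black bar. P2 and P3 lie above P1 and P4 for Id1, Id3 and Id2, and P1 and P4 lie above P2 and P3 for Bmp4, Bmp6, Bmp7 and Bmpr1a.

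Against the mean of the 28 cells, the mean of the pools was within 2-fold for 6 of the 10 members, as log2 ratios of FPKM + 1. Past 2-fold were Bmp7 (1.23, SD over pools 1.43), Bmp6 (1.06, SD 2.51) and Id3 (1.06, SD 1.407), higher in the mean of the pools, and Id4 (-1.61, SD 1.43), lower, each with n = 4. The SD is that of the ratios of the single pools, which do not centre on the ratio of the mean. In P1 to P4 Bmp7 had 2.33, -0.58, -0.38 and 1.55, and Bmp6 had 1.55, -2.69, -2.01 and 2.32. Id3 had -0.20, 1.83, 1.76 and -0.97, so each of these 3 genes lay below the cells in some pools. For the 3 higher genes the SD exceeded the ratio. Of 19783 genes, 12.9% were at least 2-fold higher in pools and 13.9% at least 2-fold lower, and the median was 0.32 over the members against 0.06 over all genes. Bmp6 had 0.15 without P4, Bmp7 0.54 without P1 and Id3 0.67 without P2, and without cells S18 to S28 they had 0.42, 0.77 and 0.34, all within 2-fold. The Id4 difference rested on cell S28: without it the ratio was -0.33, and without cells S18 to S28 it was -0.06, against -2.96 without P4. By means of log2 values, a setting that moved the median gene by 0.89, the ratios were 3.24 for Id1, 2.25 for Id2, 3.30 for Id3 and 0.48 for Id4. From mean FPKM, Id1, Id2 and Id3 had 0.40, 0.40 and 1.06. A pool averages 10 cells before the log, while single cells are logged first. A high gene found in only some cells thus comes out lower in cells by this setting. The shift of the median gene does not correct for that, so these ratios show no excess in pools. Under upper quartile scaling Bmp4 had -1.18, Bmpr1a -1.24, Id3 1.65 and Id4 -3.50.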

How the data were processed

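The authors deposited 1 table of FPKM per gene for 28 single cells and 4 pools of 10 cells. TopHat 1.41, Cufflinks 2.02 and the build mm9 are named, per the submitters' processing notes, with no role or order. The positions in the table are those of GRCm38: of 39011 lines, 96.0% have an ID known in GENCODE M21, and 99.7% of those lie on the gene so named, so coordinates are GRCm38 with starts counted from 1. The strand setting of the quantification is not given in these sources, so values of Bmp4, Bmp6, Bmpr1a, Bmpr2 and Id4, which other genes overlap, are uncertain.

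Lines of 1 symbol were summed after 27 symbols turned into dates had been restored from gene IDs. FPKM hold no counts, and an exact 0 can be a failed estimate, so genes are described as listed at 0. Depth was estimated from the commonest value of FPKM times length less 200 bases, among genes of 1 exon and 1 transcript and at least 800 bases, and called clear where it was 1.5 times as frequent as the next. Ratios used a pseudocount of 1, which understates changes of low genes. Intervals and the limit of 3 cells for a count of 0 cover counting error only. No test was made, since the labels name no animal or culture. No doublet caller was run. Sequences are from RefSeq, matched by symbol. Python 3.11.15, pandas 2.3.3 and scipy 1.17.1 were used, and the ratios and correlations were tested on simulated data.

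Genes named were all members, the 3 genes of each role list found in most cells and those found in no library, and the 3 genes most like each member found in at least 6 cells, without Gm and Rik symbols. Bmp4, Bmp6, Bmp7, Bmpr2 and Smad6 had too few cells for the last. A gene that the rule names is not reported here. The members, marker lists, role lists and the 2% limit were chosen with earlier results of these data known. The class margin, the comparison of genes listed at 0, the shares of genes set beside Bmp7 and Hey1, the split of the pools and the runs without S3 or S28 were chosen after the data were seen.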

Additional observations from a re-analysis of the deposited data

Results flagged for a closer look

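Id4 in pool P4, at 45.0 FPKM, stood far from the other 3 pools, which had 4.77 to 6.21 FPKM. Among 10 genes tested in this way, chance alone flags about 1 in 20 groups of 4 libraries.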

How the results depend on the processing

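Counts of cells per member were within 1.5 times of the reported ones with low values of the library sets put at 0 and with every library rescaled to the same sum. With a limit of 0.1 FPKM, Bmp4 was found in 19 cells, Bmp7 in 18, Smad6 in 5 and Id2 in 17. With a limit of 5 FPKM, Bmp4 was found in 3, Bmp6 in 2, Bmp7 in 3 and Smad6 in 1, and under upper quartile scaling Bmp4 in 8. Cells S18 to S28 decided several values: without them the median difference of endothelial-like cells over the others was -1.04, and the Spearman rho was 0.64 for Id1 with Id3 and 0.054 for Id1 with Id4, against -0.33 over all cells. The median ratio of pools over cells ranged from -0.14 (without P3) to 0.42 with 1 pool left out. The ratio of Id4 in pools over cells turned to 0.48 by means of log2 values, which moved the median gene by 0.89. The cause of these changes was not tested. Rescaling to the same sum shifted the median gene by 0.17 between pools and cells, and upper quartile scaling shifted it by -0.46 between endothelial-like and other cells; Id1 and Id3 stayed higher in endothelial-like cells under every alternative run, at 1.96 to 5.51 and 1.98 to 4.15. No paired analysis was possible because cell and pool numbers only name libraries and the result comes from no test.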
